A study of Mus musculus with 14 samples.

Results

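Espin, encoded by Espn, is one of the proteins that tie actin filaments into the parallel bundles found inside microvilli, stereocilia and filopodia. Its expression was examined here beside that of 8 other genes of actin bundles in bulk RNA-Seq of mouse esophagus. The 9 genes were Espn, its relative Espnl, the fascin gene Fscn1, the plastin genes Pls1, Pls3 and Lcp1, the villin gene Vil1, the ezrin gene Ezr and Eps8. They were found by symbol, and each matched 1 of the 55291 gene rows of every count table. Espn was selected because its counts differed between aged and young epithelium, so its values in that contrast are a description without a test. The other 8 were selected as genes of the same machinery.

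The 14 samples came from 9 C57BL/6 mice, with no transgene or treatment named. Peeled esophageal epithelium was sequenced from 5 aged mice (O1, O2, O3, OF5 and OM8) and 4 young mice (Y1, Y3, YF5 and YM4). The tissue peeled away, labelled stroma, came from 5 of them: the aged O1, O2 and O3 and the young Y1 and Y3. Aged meant at least 18 months and young at most 4 months, and a sex was given for 3 of the 9 mice. Each sample was 1 library from 1 layer of 1 mouse. The spread between samples of a group is therefore between mice and includes counting noise.

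Actin filaments become bundled when short cross-linkers bind neighbouring filaments side by side. Espin, fascin, the plastins and villin are such cross-linkers, and cells differ in which of them they use. Intestinal microvilli rely on villin, espin and plastin 1, hair cell stereocilia on espin, fascin 2 and plastin 1, and filopodia on fascin 1. Ezrin does not bundle filaments but anchors them to the plasma membrane, and EPS8 caps and bundles filaments at the tips of protrusions. Stratified squamous epithelium of the esophagus carries no brush border. Its superficial keratinocytes have low actin-based ridges on their surface.

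Depth and the make-up of the libraries differed between the mice. Ribosomal, mitochondrial and repeated small RNA genes held 77.1% to 83.0% of all counts in the 4 mice with epithelium only. In the other 10 samples they held 36.5% to 48.2%. Total counts were 8217516 to 9399448 in those 4, 16477424 to 21867101 in the other epithelial samples and 13257833 to 15644580 in stroma. The 4 mice with epithelium only (OF5, OM8, YF5 and YM4) had 1041386 to 1432509 counts in protein-coding genes, against 7959322 to 11051060 in the other 5 epithelial samples and 6619770 to 8059722 in stroma. A count of 3 was worth 0.707 to 1.25 normalized counts in those 4 samples and 0.0872 to 0.175 in the other 10. A normalized count is edgeR's CPM value on the TMM-adjusted library size, computed over all 14 samples. The layers carried the marker genes of their labels: all 8 keratinocyte markers were higher in epithelium, where they summed to 17324 to 54559 normalized counts against 46.5 to 457 in stroma. Stroma was rich in skeletal muscle, with 6 of 6 markers higher and a sum of 32687 to 61248 against 148 to 1331 in epithelium. Fibroblast and smooth muscle markers did not separate the layers. The fibroblast markers summed to 280 to 632 in epithelium and 415 to 1031 in stroma, with 3 of 6 called lower in epithelium. The smooth muscle markers summed to 333 to 835 and 303 to 2051, with 2 of 5 called lower. The peeled epithelium therefore also held RNA of these cell types. In such bulk samples fewer cells of a type and less RNA per cell cannot be told apart.

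The start regions of the genes on which the results turn are shown because a gene-level count pools all transcripts of a gene. In the RefSeq annotation of GRCm38.p6, 8 of the 9 genes had a start window, and Espn had 3, on the minus strand of chromosome 4. The windows of the 200 bases before each start are printed 5′ to 3′ on the strand of the gene, with matches to the GC box GGGCGG, the TATA box TATAAA and the AP-1 motif TGANTCA on either strand in capitals. The CArG box, the motif of serum response factor, was searched as well. The outermost Espn start, the inner Espn start nearest the 3′ end, and the outermost starts of Pls3, Ezr and Lcp1 are given.
Espn, chr4:152152390-152152589, minus strand: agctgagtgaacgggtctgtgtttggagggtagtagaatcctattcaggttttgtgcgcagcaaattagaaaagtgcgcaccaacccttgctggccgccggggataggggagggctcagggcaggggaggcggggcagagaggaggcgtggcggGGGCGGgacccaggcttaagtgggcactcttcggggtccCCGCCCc
Espn, chr4:152128926-152129125, minus strand: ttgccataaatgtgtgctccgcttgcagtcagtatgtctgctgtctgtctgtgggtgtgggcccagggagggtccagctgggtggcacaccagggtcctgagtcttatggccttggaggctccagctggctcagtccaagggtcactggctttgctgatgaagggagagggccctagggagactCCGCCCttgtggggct
Pls3, chrX:75875183-75875382, minus strand: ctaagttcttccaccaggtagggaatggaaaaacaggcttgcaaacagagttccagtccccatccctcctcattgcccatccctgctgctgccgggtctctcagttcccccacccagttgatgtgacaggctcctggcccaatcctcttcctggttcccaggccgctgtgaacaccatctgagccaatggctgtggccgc
Ezr, chr17:6782781-6782980, minus strand: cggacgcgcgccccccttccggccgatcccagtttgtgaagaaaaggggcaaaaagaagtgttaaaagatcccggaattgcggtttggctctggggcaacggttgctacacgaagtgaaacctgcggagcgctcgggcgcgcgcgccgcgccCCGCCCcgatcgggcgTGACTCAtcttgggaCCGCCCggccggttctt
Lcp1, chr14:75130923-75131122, plus strand: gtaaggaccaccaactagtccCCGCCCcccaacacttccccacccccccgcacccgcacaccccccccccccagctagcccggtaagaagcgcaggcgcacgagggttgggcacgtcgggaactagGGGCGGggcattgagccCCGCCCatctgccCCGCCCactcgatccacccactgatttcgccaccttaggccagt

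The outermost Espn window held 2 GC boxes and 11 CpG dinucleotides, and the inner window shown held 1 GC box and 2 CpG dinucleotides. The Ezr window held 2 GC boxes and 1 AP-1 match, and the Lcp1 window 4 GC boxes. None of the motifs occurred in the outermost Pls3 window. The window of an inner Pls3 start, chrX:75875171-75875370, overlaps most of it and held 1 GC box. Among all 13 windows of the 8 genes a CArG box occurred only in that of Vil1. Over 32851 windows of the same length, a GC box occurred in 31.0%, a TATA box in 9.96%, an AP-1 match in 5.48% and a CArG box in 1.18%. A match describes these letters only. Which of the Espn starts was used cannot be read from counts per gene.

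Espn lies at chr4:152120331-152152371 on the minus strand and has 8272 exonic bases. Espn was higher in each aged than in each young epithelium. The aged samples gave 13.7 normalized counts in O1, 11.5 in O2, 14.5 in O3, 14.5 in OF5 and 15.3 in OM8. Young epithelium gave 6.20 in Y1, 5.66 in Y3, 5.83 in YF5 and 6.23 in YM4. The groups did not overlap. The young range was narrow, but YF5 held 14 reads and YM4 18, and these samples selected Espn. Its width is therefore no measure of the spread between mice. The means were 13.9 ± 1.44 (SD, n = 5) and 5.98 ± 0.28 (SD, n = 4) normalized counts, a ratio of 2.32. The fitted log2 fold change, aged minus young, was 1.19, and 1.15 to 1.26 when each mouse was left out in turn.

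These levels rested on few reads in the shallow samples: 42 in OF5, 65 in OM8, 14 in YF5 and 18 in YM4, against 173 to 471 in the other 5. The ratio of the means was 2.23 among the mice with both layers (3 aged, 2 young) and 2.47 among the mice with epithelium only (2 aged, 2 young). In both sets each aged sample lay above each young sample, which follows from the lack of overlap over all 9. These sets, and the fits with each mouse left out, use the samples that selected Espn and lend its difference no support. Sums of each of the 10 marker lists overlapped between the ages in epithelium. The 8 keratinocyte markers summed to 17324 to 49547 normalized counts in aged and 26548 to 54559 in young epithelium. For 6 markers of tuft or taste cells, chemosensory cells whose microvilli are known to hold espin, the sums were 1.72 to 6.84 and 0.833 to 7.27. For 6 markers of Merkel cells, touch receptor cells with espin-bearing microvilli, they were 5.09 to 7.76 and 4.15 to 7.29. Of the 9 epithelial samples, Gnat3 and Gfi1b had no count in 7 each, Chat in 5, Trpm5 in 3 and Pou2f3 in 1, while Dclk1 was detected in all. Pou2f3, a tuft cell factor that keratinocytes are also known to express, had a median of 2.30 normalized counts in epithelium and 0.233 in stroma. Among the Merkel markers Krt8 had no count in 7 of the 9, Atoh1 and Krt20 in 5 each, Krt18 in 3 and Isl1 in 2. Piezo2 was detected in all, with a median of 5.19 normalized counts against 6.09 for the sum of the 6. The Merkel sums thus describe mostly Piezo2.

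Fibroblast markers tended to lower and leukocyte markers to higher sums in aged epithelium, although 0 of these genes passed the test. The 6 fibroblast markers summed to 280 to 454 normalized counts in aged and 416 to 632 in young epithelium. Among the mice with both layers the aged sums lay below the young ones without overlap. Among the mice with epithelium only the ages overlapped, at 433 in OF5 and 280 in OM8 against 416 in YF5 and 556 in YM4. Col3a1 (log2 fold change -0.70, adjusted p = 0.18, edgeR) and Col1a1 (-0.62, adjusted p = 0.62, edgeR) gave the largest differences of that list, and neither passed the test. The 11 leukocyte markers summed to 40.4 to 84.1 in aged and 23.9 to 45.8 in young epithelium. Cd74 held much of these sums, with a median of 26.4 over the 9 epithelial samples against 40.7 for the whole list. It had the largest log2 fold change of the 9 leukocyte markers tested, 0.72 (adjusted p = 0.9996, edgeR), against a median of 0.19. Among the mice with epithelium only, the leukocyte sums were 84.1 in OF5 and 60.8 in OM8 against 31.3 in YF5 and 29.1 in YM4. Among the mice with both layers the ages overlapped. There the leukocyte sums were 40.4 in O1, 40.9 in O2 and 40.7 in O3 against 23.9 in Y1 and 45.8 in Y3. The part of these cells in the Espn difference was not tested.

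The contrast that selected Espn holds 2 of 15859 genes (0.0126%) inside an adjusted p of 0.05 (edgeR, quasi-likelihood F-test, Benjamini-Hochberg), which describes the selection and is no test of Espn. The other gene inside the threshold was Rps4l, a ribosomal protein gene, at a log2 fold change of -2.33 (adjusted p = 0.00094, edgeR). The next genes by rank lay outside it: Sdc3 at 0.91 (adjusted p = 0.055, edgeR) and Nebl at -0.65 (adjusted p = 0.10, edgeR).

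**Figure D1:**
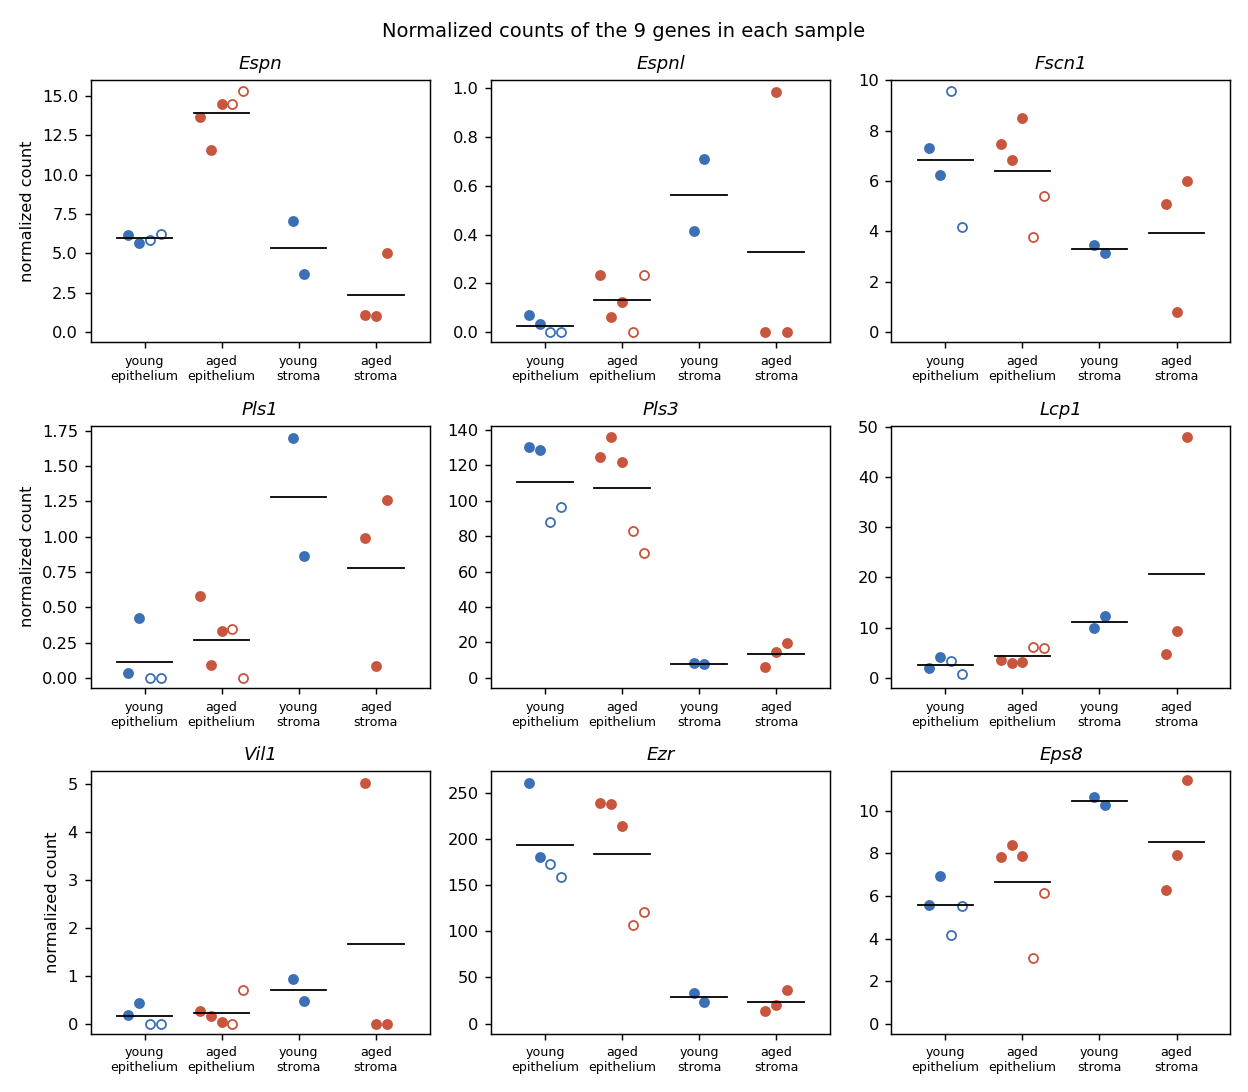
Normalized counts (vertical axis, linear, each panel on its own scale) of the 9 genes in each of the 14 samples, grouped by layer and age. Points are mice, blue for young and red for aged, hollow for the 4 mice with epithelium only, and lines are group means. The aged epithelial samples of Espn lie from 11.5 to 15.3 and the young ones from 5.66 to 6.23. Epithelial and stromal samples do not overlap for Pls3 and Ezr and overlap in the other panels. How often the layers separate so over all genes was not counted, and 56.2% of the genes tested were called between them.

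Stroma, which played no part in the selection of Espn, did not show a higher level in aged mice. Espn stood at 1.11 normalized counts in O1, 1.03 in O2 and 5.01 in O3, and at 7.07 in Y1 and 3.66 in Y3. The ages overlapped, with O3 above Y3. The log2 fold change, aged minus young, was -1.17 (SE 0.85, adjusted p = 0.99996 by edgeR's quasi-likelihood test). With each mouse left out in turn it ran from -2.36 (without O3) to -0.64. In the same stromal samples the keratinocyte markers summed to 53.1 normalized counts in O1, 457 in O2, 251 in O3, 74.5 in Y1 and 46.5 in Y3. O2 had the highest sum and the lowest Espn, Y1 had the highest Espn, and O3 was second highest in both. The part of keratinocytes in stromal Espn was not tested.

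Within mice, the epithelium held 12.4 times the stromal Espn level in O1, 11.2 times in O2 and 2.89 times in O3. In young mice the ratio was 0.877 in Y1 and 1.54 in Y3. Each ratio of the 3 aged mice lay above both ratios of the young mice, and the fitted difference of the age effects, epithelium minus stroma, was 2.31 on the log2 scale. This value shares its epithelial samples with the selection of Espn and is given without a test. The log2 fold change between the layers was 1.54 (SE 0.43) across all 14 samples, 2.52 over aged samples only and 0.25 over young samples only. In a fit blocked on mouse, over the 5 animals that gave both layers, it was 1.87. These values too rest on the epithelial samples that chose Espn, and no test is given for them.

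**Figure D2:**
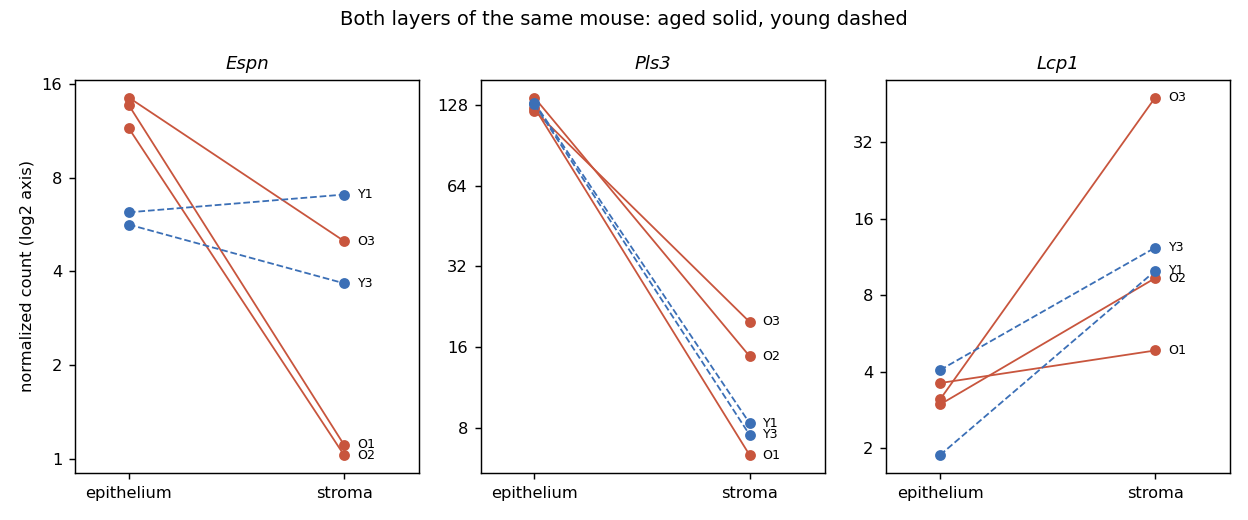
Normalized counts (vertical axis, log2 scale) of Espn, Pls3 and Lcp1 in the epithelium and stroma of the 5 mice with both layers, 1 line per mouse, red and solid for aged, blue and dashed for young. Espn falls steeply from epithelium to stroma in O1 and O2 and rises slightly in Y1, Pls3 falls in all 5 mice, and Lcp1 rises in all 5, most in O3.

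Among 11142 genes whose log2 CPM averaged 1 or more, the profiles most like that of Espn were ranked by Pearson's r of log2 values, as a description. Over the 9 epithelial samples they were Exoc6 (r = 0.94), Fnip1 (0.91), Pkig (0.90), Zfp574 (0.90) and L1cam (0.90). Their means in aged and young epithelium lay closer together than those of Espn, for example 22.2 ± 2.44 and 14.3 ± 1.86 normalized counts for L1cam, an adhesion molecule, and 4.61 ± 0.36 and 3.60 ± 0.13 for Exoc6, an exocyst subunit. Over all 14 samples the leading genes were Rgs12 (0.93), Coro2a (0.92), Exoc5 (0.91), Setdb1 (0.90) and Tbc1d10a (0.90). Of the other bundle genes compared over the epithelial samples, Lcp1 had an r of 0.56 with Espn, Eps8 0.15, Fscn1 -0.15, Pls3 -0.22 and Ezr -0.24. These points share library depth and the split between mice with and without stroma, and r has no test here.

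Between the layers, 5 of the 6 bundle genes besides Espn that passed the filter on low counts differed, 3 of them higher in epithelium (Pls3, Ezr and Fscn1) and 2 lower (Lcp1 and Pls1). This share stands against 56.2% of the 16791 genes tested, 4382 higher and 5059 lower, so that a difference between the layers was common. The filter left out Espnl and Vil1. The bundle genes differed from each other in size and direction. The mean level in epithelium was 9.54 times that in stroma for Pls3 and 7.36 times for Ezr, whereas Lcp1 and Pls1, of the same family as Pls3, were lower in epithelium.

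Pls3, on the X chromosome (chrX:75785654-75875182, minus strand), encodes plastin 3, the plastin of most solid tissues. Its normalized counts ran from 70.7 to 136 in epithelium (median 122, n = 9). In stroma they were 6.36 in O1, 14.8 in O2, 19.9 in O3, 8.36 in Y1 and 7.56 in Y3. No stromal sample reached any epithelial sample. The log2 fold change was 3.25 (SE 0.29, adjusted p = 6.76e-09, edgeR's quasi-likelihood test). The epithelial samples fell into a higher set of 122 to 136 in the mice with both layers and a lower one of 70.7 to 96.6 in the mice with epithelium only. Within the 5 mice with both layers, epithelium held 6.12 to 19.6 times the stromal level. The part of depth or of library make-up in the lower set was not tested.

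Lcp1, on chromosome 14 (chr14:75131101-75230842, plus strand), encodes plastin 2, also called L-plastin, the plastin of blood cells. In epithelium it ran from 0.692 to 6.20 normalized counts (median 3.33, n = 9). Stroma gave 4.84 in O1, 9.33 in O2, 47.9 in O3, 9.96 in Y1 and 12.3 in Y3. O3 stood far above the other 4, and O1 lay within the epithelial range. The log2 fold change was -2.29 (SE 0.46, adjusted p = 0.000351) by edgeR's quasi-likelihood test and -1.38 (adjusted p = 0.0027) without O3. Leukocyte markers moved with it. The 11 markers summed to 441 normalized counts in the stroma of O3 and to 71.1 to 131 in that of the other 4 mice, against 23.9 to 84.1 in epithelium, and 6 of the 9 tested were lower in epithelium. Ptprc, the pan-leukocyte marker, was above 0 in all 14 samples, and Cd3e and Cd79a, of T and B cells, were at 0 in 4 of the 9 epithelial samples each. The part of these cells in the Lcp1 difference was not tested. Lcp1 shares 311 and 219 exonic bases with the opposite-strand noncoding genes Gm15628 and Gm15629, and whether strand was used in counting is not given in the sources used here.

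Pls1, on chromosome 9 (chr9:95752642-95845311, minus strand), encodes plastin 1 of intestinal microvilli. It was scarce, at 0 to 0.581 normalized counts in epithelium (median 0.0909, n = 9), which is 0 to 20 reads a sample. Stroma gave 0.992 in O1, 0.0822 in O2, 1.26 in O3, 1.70 in Y1 and 0.867 in Y3. O2 lay inside the epithelial range and the other 4 stromal samples above it. Its log2 fold change of -1.98 (SE 0.75, adjusted p = 0.0298, edgeR's quasi-likelihood test) lost the threshold without O3 (-1.93, adjusted p = 0.0554), and without Y1 (-1.52, adjusted p = 0.139). It was also lost in the 5 mice with both layers without a block (-1.71, adjusted p = 0.0994) and with the mouse as a block (-1.49, adjusted p = 0.290), in aged samples only (-1.41, adjusted p = 0.312), with a covariate for codes with or without a letter after O or Y (-1.66, adjusted p = 0.109) and with no filter on low counts (-1.85, adjusted p = 0.116), all by edgeR.

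The balance of the 3 plastins was compared as the share of each in their summed counts per kilobase of exon, a measure within a sample that needs no scaling between libraries. Pls3 made up 98.2% ± 1.16 (SD, n = 9) of the plastin counts in epithelium and 60.4% ± 12.0 (SD, n = 5) in stroma. Lcp1 made up 1.57% ± 1.11 and 32.8% ± 12.0, and Pls1 0.187% ± 0.207 and 6.87% ± 5.17. The Pls3 share was at least 96.3% in every epithelial sample and at most 77.7% in every stromal sample. Lowest among stromal samples was O3 with 46.7%, where Lcp1 reached 50.1%. All 3 shares differed between the layers (two-sided exact permutation test, p = 0.000999 for Pls3 and Lcp1, the smallest p the 14 samples allow, and 0.002 for Pls1, with Benjamini-Hochberg adjusted p of 0.0012, 0.0012 and 0.0020 over 6 shares).

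Ezrin showed the same contrast within its family. Ezr lies on chromosome 17 (chr17:6738041-6782784, minus strand) and shares 4 exonic bases with Sytl3 on the opposite strand. It was the most abundant of the 9 genes in both layers, with 107 to 261 normalized counts in epithelium (median 181, n = 9). As for Pls3, the mice with epithelium only lay lower (107 to 173) than those with both layers (181 to 261). Stroma gave 14.1 in O1, 20.7 in O2, 36.1 in O3, 33.2 in Y1 and 23.5 in Y3. The layers did not overlap, and the log2 fold change was 2.88 (SE 0.28, adjusted p = 2.73e-08, edgeR's quasi-likelihood test). Within the 5 mice the epithelium held 5.92 to 16.9 times the stromal level.

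Radixin and moesin, encoded by Rdx and Msn, are the other members of the ERM family and link actin to the membrane as ezrin does. Of the ERM counts per kilobase, Ezr made up 77.5% ± 3.52 (SD) over 9 epithelial and 22.9% ± 5.80 over 5 stromal samples. For Rdx the shares were 16.0% ± 1.96 and 42.6% ± 5.95, and for Msn 6.50% ± 1.83 and 34.5% ± 7.58. Each of the 3 differed between the layers (two-sided exact permutation test, p = 0.000999, adjusted p = 0.0012 for each). In all 5 mice with both layers, the Ezr share was higher in epithelium and the Rdx and Msn shares were lower. A sign-flip test on these 5 differences cannot go below an exact p of 0.0625, which each of the 6 plastin and ERM shares reached. Rdx itself was not called between the layers in normalized counts, at a log2 fold change of -0.28 (SE 0.15, adjusted p = 0.115, edgeR's quasi-likelihood test).

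**Figure D3:**
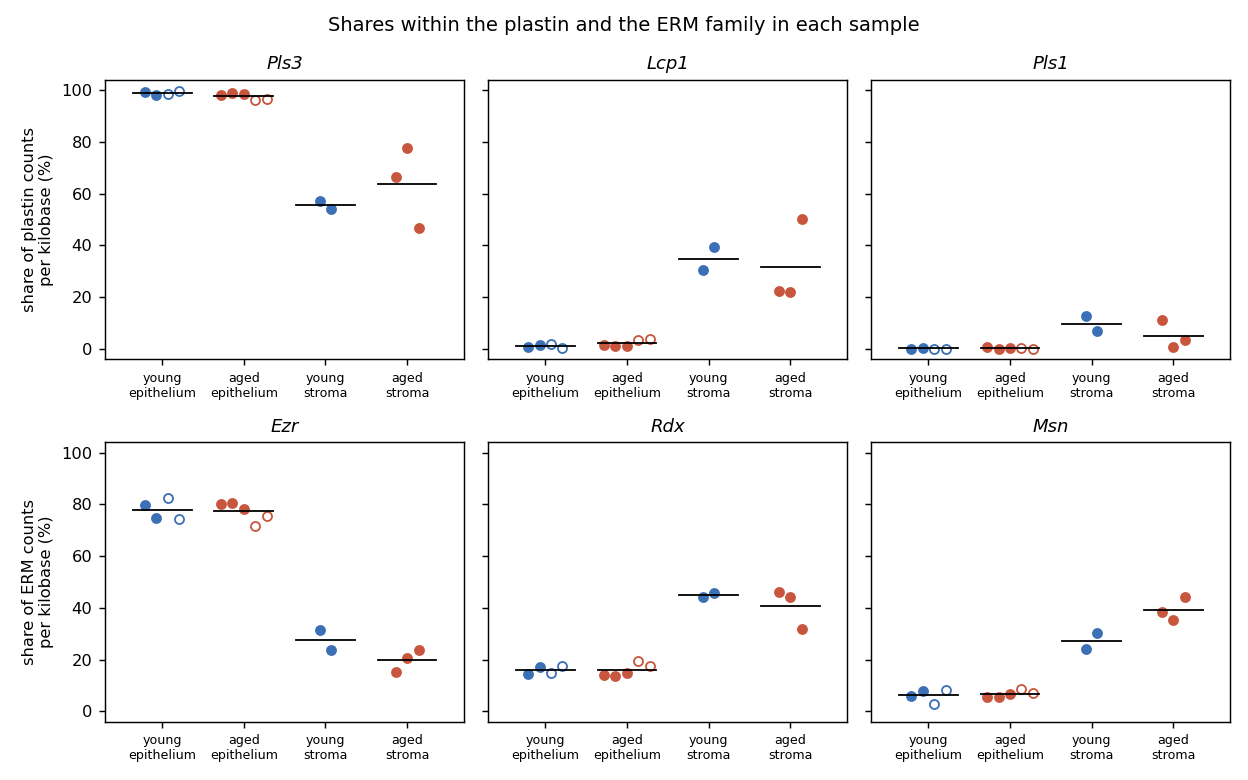
Share of each gene in the summed counts per kilobase of its family (vertical axis, percent), the plastins in the upper row and the ERM genes in the lower row, in each sample by layer and age. Points are mice, blue for young and red for aged, hollow for mice with epithelium only, and lines are group means; Pls3 holds 96.3% to 99.7% of plastin counts in epithelium and 46.7% to 77.7% in stroma, and Ezr 71.8% to 82.4% of ERM counts in epithelium and 15.3% to 31.3% in stroma.

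Fscn1, on chromosome 5 (chr5:142960343-142973185, plus strand), encodes fascin, the bundler of filopodia. It ranged from 3.79 to 9.58 normalized counts in epithelium (median 6.85, n = 9) and from 0.781 in O2 to 6.01 in O3 in stroma (median 3.46, n = 5). The ranges overlapped, although epithelium was higher in each of the 5 mice with both layers, by 1.41 to 8.77 times. The log2 fold change was 0.85 (SE 0.35, adjusted p = 0.0458, edgeR's quasi-likelihood test), close to the threshold. It was not called without O2 (0.57, adjusted p = 0.122), Y1 (0.81, adjusted p = 0.111), Y3 (0.76, adjusted p = 0.130) or YF5 (0.79, adjusted p = 0.0722). Nor was it called by DESeq2 (0.77, adjusted p = 0.0507), with upper quartile scaling (0.76, adjusted p = 0.0646) or over aged samples only (0.72, adjusted p = 0.330). Over the 5 mice with both layers it was 0.99 without a block (adjusted p = 0.0514) and 1.31 with the mouse as a block (adjusted p = 0.0206).

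Eps8, on chromosome 6 (chr6:137477245-137654876, minus strand), encodes a capping and bundling protein of protrusion tips that is also a substrate of the EGF receptor. It gave 3.10 to 8.39 normalized counts in epithelium (median 6.13, n = 9) and 6.30 to 11.4 in stroma (median 10.3, n = 5). The log2 fold change of -0.55 (SE 0.23, adjusted p = 0.0512, edgeR's quasi-likelihood test) lay just outside the threshold. It passed without O1 (-0.71, adjusted p = 0.0191), without O2 (-0.68, adjusted p = 0.0388), with upper quartile scaling (-0.66, adjusted p = 0.0134) and by DESeq2 (-0.61, adjusted p = 0.0080). It was smaller over the 5 mice with both layers, at -0.34 without a block (adjusted p = 0.193) and -0.20 with the mouse as a block (adjusted p = 0.580). It was also smaller with a covariate for codes with or without a letter after O or Y (-0.29, adjusted p = 0.300), in aged samples only (-0.33, adjusted p = 0.4998) and with no filter on low counts (-0.36, adjusted p = 0.336).

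The remaining genes were near the limit of detection. Espnl, on chromosome 1 (chr1:91322075-91348306, plus strand), encodes the espin-like protein of stereocilia and had 0 to 8 reads in epithelium and 0 to 24 in stroma. The highest level was 0.986 normalized counts, in the stroma of O2. Vil1, on chromosome 1 (chr1:74409376-74435559, plus strand), encodes villin, the hallmark bundler of the intestinal brush border. It had 0 to 13 reads in epithelium, at most 0.707 normalized counts. In stroma 86 reads (5.02 normalized counts) came from O1, 18 from Y1 and 12 from Y3, with 0 in O2 and O3. Vil1 shares 49 exonic bases with Usp37 on the opposite strand. Cdx1 and Cdx2, transcription factors of intestinal epithelium, had no count in 6 and 7 of the 9 epithelial samples.

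Levels can be ordered between genes per kilobase of exon. In epithelium the mean normalized counts per kilobase were 57.1 for Ezr, 25.7 for Pls3, 2.19 for Fscn1, 1.26 for Espn, 0.50 for Eps8 and 0.37 for Lcp1, followed by Vil1, Pls1 and Espnl below 0.06. Ezr lay above Pls3, Pls3 above Fscn1 and Espn above Eps8 with no overlap between samples. The margin was small for Ezr over Pls3 (32.5 against 32.1) and for Espn over Eps8 (0.684 against 0.679). Other neighbours in this order overlapped. In stroma the order was Ezr (7.76), Pls3 (2.69), Lcp1 (1.77), Fscn1 (1.23), Eps8 (0.75), Espn (0.43), Vil1 (0.36), Pls1 (0.25) and Espnl (0.077), and each pair of neighbours overlapped. By level per kilobase, Espn was the fourth of the 9 genes in epithelium and the sixth in stroma.

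The other bundle genes did not pass the test by age. In epithelium 5 of them were tested, and 0 were called by edgeR's quasi-likelihood test, against 0.0126% of all genes. An unadjusted p under 0.05 was found for 0 of the 5, against 509 of 15859 genes, and 0 were called by DESeq2. The log2 fold changes, aged minus young, were -0.04 for Fscn1 (SE 0.23), -0.14 for Pls3 (SE 0.13), 0.49 for Lcp1 (SE 0.34), -0.22 for Ezr (SE 0.15) and 0.23 for Eps8 (SE 0.21), each with an adjusted p of 0.9996. Aged and young samples of each of these genes overlapped. Espnl, Pls1 and Vil1 had too few reads to be tested.

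In stroma all 9 genes were tested between 3 aged and 2 young mice. By edgeR's quasi-likelihood test 0 of 9 were called, against 0% of 21323 genes, and DESeq2 called 0 of them too. None had an unadjusted p under 0.05 (0 of 9), against 776 of all genes. Besides Espn, the log2 fold changes were 0.78 for Pls3 (SE 0.50), 0.90 for Lcp1 (SE 0.79), -0.26 for Ezr (SE 0.39), -0.29 for Eps8 (SE 0.42) and 0.25 for Fscn1 (SE 0.85). Those of Lcp1, Ezr and Fscn1 changed sign when O3 or O1 was left out, being -0.68 for Lcp1 and -0.23 for Fscn1 without O3 and 0.0066 for Ezr without O1. The SEs for Espnl, Pls1 and Vil1 were 2.40, 1.62 and 2.30, so that changes of several-fold were not detectable among these 5 mice. For the difference of the age effects between layers, 0 of the 8 genes other than Espn were called by edgeR, against 0% of 22771 genes. An unadjusted p under 0.05 was found for 0 of them, against 979 of all genes, and DESeq2 called 0.

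None of the 6 plastin and ERM shares passed the test by age. Pls3 held 97.7% ± 1.24 of plastin counts per kilobase in aged and 98.9% ± 0.712 in young epithelium (two-sided exact permutation test, p = 0.127, adjusted p = 0.508, n = 5 and 4). Ezr held 77.3% ± 3.68 and 77.8% ± 3.86 of ERM counts per kilobase (p = 0.810, adjusted p = 0.937, the same exact test). In stroma the Msn share was 39.3% ± 4.53 in aged and 27.4% ± 4.36 in young mice with no overlap, but 3 mice against 2 cannot reach an exact two-sided p below 0.2, the value found.

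**Figure D4:**
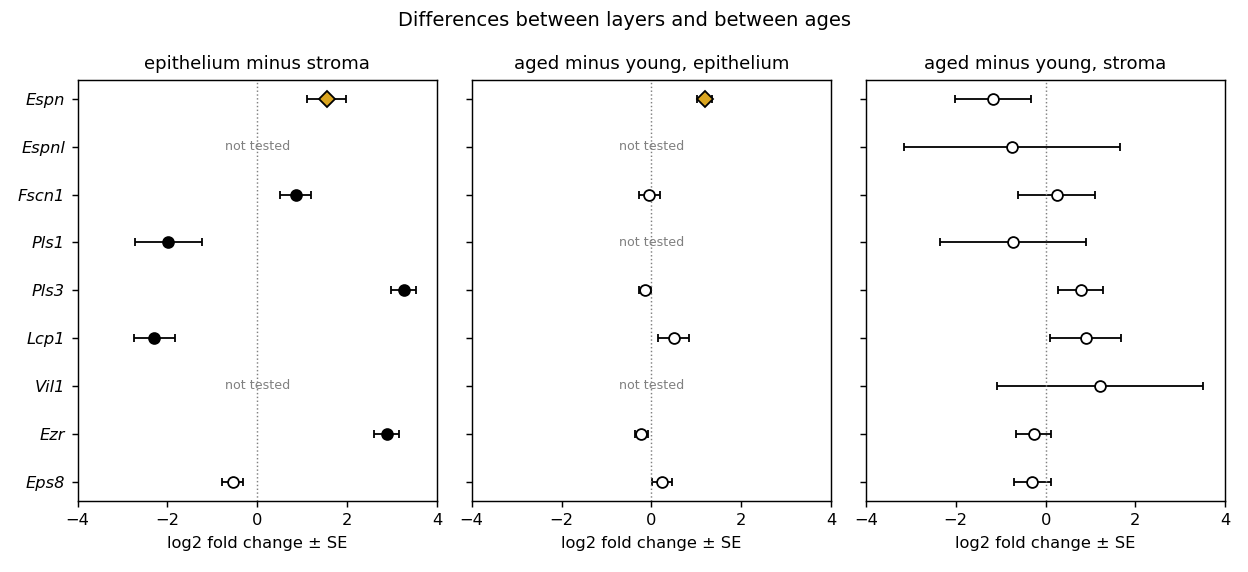
Fitted log2 fold changes (horizontal axis) with standard errors (bars) of the 9 genes between the layers and between the ages in each layer. Filled circles passed an adjusted p of 0.05 by edgeR, hollow circles did not, and gold diamonds are Espn in the panels that use the epithelial samples by which it was selected, shown without a test; the layer panel spreads from -2.29 for Lcp1 to 3.25 for Pls3, while in aged against young epithelium the genes other than Espn lie between -0.22 and 0.49.

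A wider set of 61 genes that act with bundled actin was then examined in 6 lists. Between the layers 54 were tested, 25 higher and 17 lower in epithelium, with a median log2 fold change of 0.45 against -0.05 over all genes tested. These lists were chosen with results of these data known, and 56.2% of all genes were called in this comparison.

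The clearest direction was in the EPS8 and IRSp53 families, adaptor proteins that shape protrusions, with 5 of 7 tested genes higher, 0 lower and a median of 1.99. Eps8l1 averaged 192 ± 24.8 normalized counts over the 9 epithelial samples and 3.41 ± 2.18 over the 5 stromal samples (mean ± SD, as for the genes that follow). Eps8l2, a relative found at stereocilia tips, stood at 91.0 ± 7.70 and 1.99 ± 1.20. Their log2 fold changes were 5.80 (SE 0.57, adjusted p = 1.66e-07, edgeR) and 5.53 (SE 0.56, adjusted p = 4.1e-07, edgeR), against -0.55 for Eps8. Baiap2, the IRSp53 gene, had 46.6 ± 8.19 and 4.87 ± 1.31, and Abi1, an EPS8 partner, 39.2 ± 6.10 and 9.92 ± 2.08. Eps8l1 and Eps8l2 were called higher in epithelium and Eps8 itself was not. Eps8l3 had too few reads to be tested, and Baiap2l2 (adjusted p = 0.362, edgeR) and Mtss1 (-0.19, adjusted p = 0.440, edgeR) were not called.

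Partners of ezrin divided by gene, with 3 of 9 tested higher and 4 lower (median -0.28). Slc9a3r1, which encodes the scaffold EBP50, stood at 89.2 ± 18.6 normalized counts in epithelium and 6.45 ± 4.06 in stroma, whereas its relative Slc9a3r2 stood at 2.66 ± 1.13 and 11.9 ± 5.01. Cd44, a membrane receptor bound by ERM proteins, had 113 ± 18.8 and 17.2 ± 5.58. Slk, a kinase that activates ERM proteins, had 108 ± 7.99 and 36.6 ± 6.53. All 4 differed by edgeR, in a comparison that called 56.2% of all genes tested.

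The villin and gelsolin family had 2 of 7 tested genes higher and 3 lower in epithelium (median -0.81). The filament-capping gene Capg (38.7 ± 10.3 against 8.73 ± 7.60 normalized counts) and Scin (2.10 ± 1.02 against 0.984 ± 0.586) were higher. Svil, the supervillin gene (40.6 ± 5.76 against 267 ± 27.8), and Gsn (603 ± 161 against 1061 ± 417) were lower. Svil is known to be strongly expressed in muscle, the skeletal muscle markers were higher in stroma as given above, and the part of muscle in the Svil difference was not tested. Among 8 tested bundlers and cross-linkers of other families, 4 were higher and 2 lower (median 0.57). Actn4, an α-actinin, reached 210 ± 46.1 against 46.9 ± 11.0, and Marcks 51.4 ± 11.8 against 18.9 ± 6.10. Synpo, an α-actinin partner, was lower, at 7.73 ± 1.77 against 95.3 ± 10.03.

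Motors and scaffolds of microvilli and stereocilia had 4 of 11 tested genes higher and 4 lower (median -0.21). The minus-end motor gene Myo6 stood at 102 ± 11.3 normalized counts against 10.1 ± 2.02, and Myo5b, which moves vesicles, at 60.3 ± 7.25 against 6.64 ± 2.08. Myo15 (0.259 ± 0.304 against 1.85 ± 0.956) and Myo7b (0.304 ± 0.385 against 1.82 ± 1.60), motors of stereocilia and brush border, were lower and close to the detection limit in epithelium. Among actins and genes of filament elongation, 7 of 12 were higher and 4 lower (median 0.77). Actg1 had 184 ± 73.9 against 30.3 ± 12.9, Actb 883 ± 215 against 384 ± 196 and the formin gene Diaph3 7.08 ± 2.34 against 1.15 ± 0.515, while Fmnl3 had 1.95 ± 0.756 against 7.20 ± 4.73. Actb and Actg1 have near-identical copies in the genome, and how reads that match several genes were counted is not given in the sources used here.

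By age, 0 of the 61 genes were called in epithelium (50 tested), in stroma (59 tested) or in the difference of the age effects (59 tested), by edgeR's quasi-likelihood test, against 0.0126%, 0% and 0% of all genes. Their median log2 fold changes were -0.018, 0.12 and -0.14. With no filter on low counts, Flna and Actb were called higher in aged stroma, and Gsn, Flna and Actb were called lower in the difference of the age effects. These names were chosen after their values were seen.

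**Figure D5:**
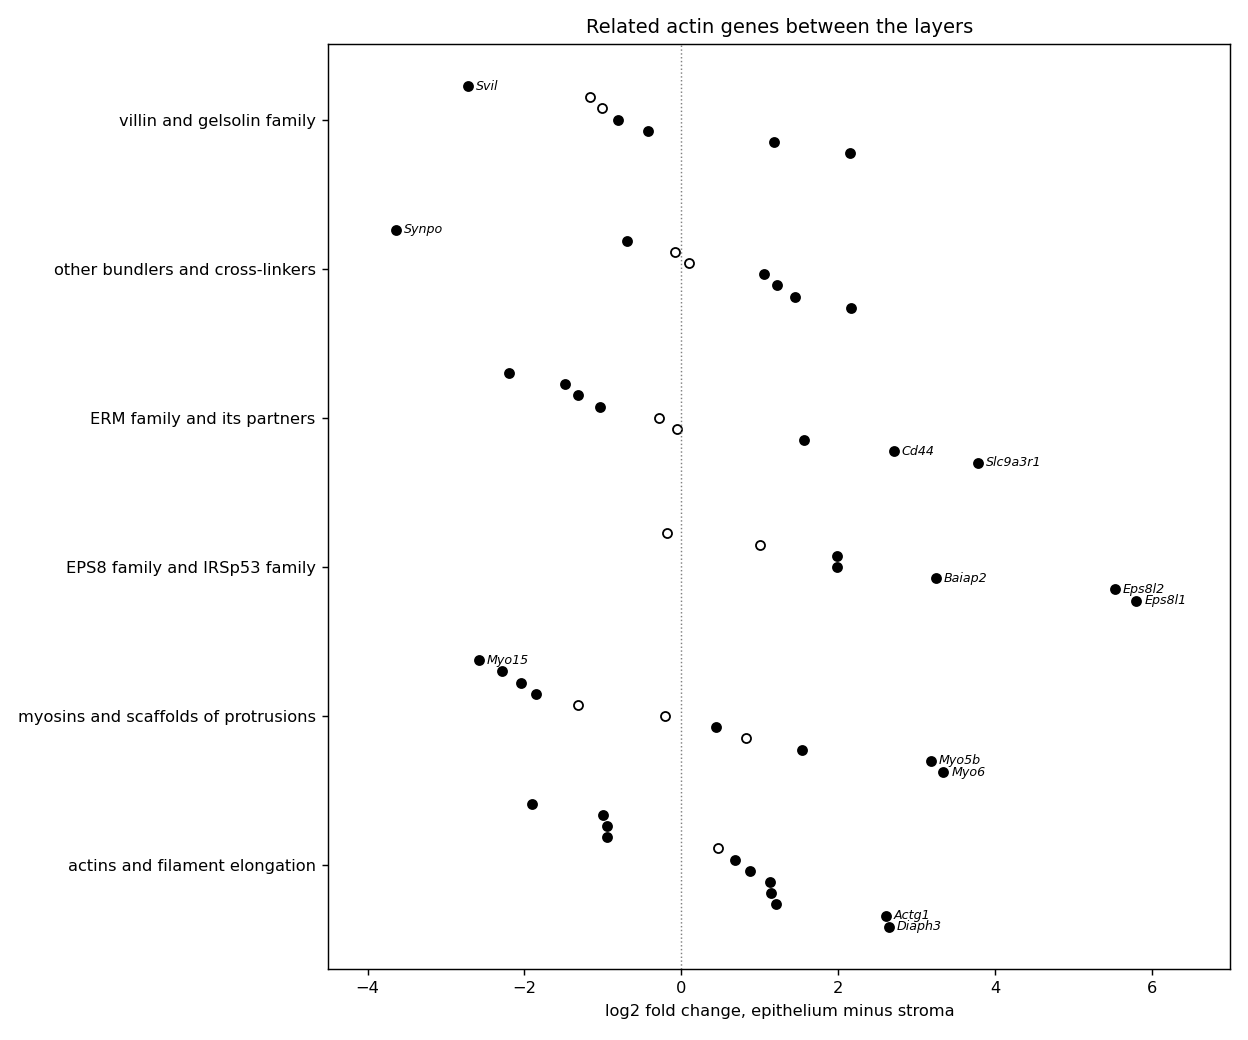
Log2 fold change between epithelium and stroma (horizontal axis) of the tested genes of 6 lists of actin regulators (rows, points staggered vertically in order of their value). Filled points passed an adjusted p of 0.05 by edgeR and hollow points did not, and genes beyond 2.5 in either direction are named; Eps8l1 and Eps8l2 lie farthest to the right at 5.80 and 5.53, and Synpo farthest to the left at -3.64.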

How the data were processed

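Poly(A)-selected RNA of peeled epithelium and of stroma was sequenced. The authors aligned reads to GRCm38.p6 with Rsubread, counted them with featureCounts and deposited 1 table of whole-number counts per gene and sample, not normalized. The annotation release and the settings for strand and for reads matching several genes are not given in the sources used here. Gene positions and exon lengths came from GENCODE M21, which held 53292 of the 55291 symbols, and start windows from RefSeq.

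Tests used the quasi-likelihood functions of edgeR 4.0.16 (R 4.3.3) after TMM scaling and after filterByExpr, called with the design and min.count of 10, with estimateDisp and robust glmQLFit, and with Benjamini-Hochberg adjustment over all genes tested and a threshold of 0.05. The standard error is the size of the log2 fold change divided by the square root of F. The layers were compared over all 14 samples without a covariate, age in epithelium over 9 samples with a covariate for codes with or without a letter after O or Y, age in stroma over 5 samples, and the interaction in the 5 animals that gave both layers (10 samples). These layers are paired by animal. Deviations of the layers of 1 mouse from their group means correlated at 0.034 to 0.092. The epithelial group means pooled mice with and without stroma, so these values cannot show how strongly the layers pair. A fit blocked on mouse was run as an alternative. Shares were compared by exact permutation tests with scipy 1.17.1. Alternatives were DESeq2 1.42.0, other filters, upper quartile scaling, other covariates and subsets of mice, blocks, and each mouse left out in turn.

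The 9 genes, the related lists, the markers and the rule for named genes (all 9 genes, up to 4 called genes per list by size of fold change, and the 5 genes most like Espn over the epithelial and over all samples) were chosen with earlier results of these data known. A gene that this rule names is not reported here. Total counts ran from 8217516 to 21867101 per sample. The 20 pairs of samples within groups differed by more than sampling noise (lowest chi-square per degree of freedom 9.93). On simulated counts with 200 changed genes, the procedure recovered 121 between the layers with 6 false calls, 151 by age in epithelium with 23, 48 by age in stroma with 5 and 29 in the interaction with 5. At a simulated log2 change of 1, 16 of 68 were recovered between the layers, 29 of 68 by age in epithelium, 0 of 66 by age in stroma and 0 of 69 in the interaction. Except between the layers, the false calls exceeded the share that a threshold of 0.05 allows. In the real data 56.2% of genes were called between the layers, far more than were changed here, so the simulated recovery does not carry over to that comparison. No protein or genome sequence was used here.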

Additional observations from a re-analysis of the deposited data

Results flagged for a closer look

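Of 60 groups of values tested for a sample far from the others, 3 had one, and chance gives about 1 in 20. The Pls1 level in the epithelium of Y3 was 0.425 normalized counts, from 13 reads, against 0 to 0.0354 in the other young epithelial samples. The Pls1 share of the plastin counts per kilobase in the same sample was 0.354%, against 0% to 0.0294%. The Rdx share of the ERM counts per kilobase in the stroma of O3 was 32.0%, against 44.2% to 46.2% in the other 4 stromal samples. In that sample Msn held 44.1%, the leukocyte markers summed to 441 normalized counts against 71.1 to 131 in the other stromal samples, and Lcp1 was at its highest. The part of leukocytes in the Rdx share was not tested.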

How the results depend on the processing

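Pls3 and Ezr stayed called and higher in epithelium under every alternative tried, and Lcp1 stayed called and lower wherever it was tested. Besides Espn, for which no test is given, 5 of the 6 genes tested between the layers were called, against 56.2% of all genes tested. With each mouse left out, the calls of Fscn1, Pls1 and Eps8 changed as given above. Vil1 entered the test and was called lower in epithelium without O2 and without O3. With at least 10 counts in every sample, Pls3 and Ezr were called and Fscn1 was not (0.53), among 4316 of 6711 genes. Lcp1, Pls1 and Eps8 were not tested there. Over all genes, 8395 to 9484 were called with each mouse left out. The median log2 fold change of all genes was -0.05 with TMM, -0.12 with DESeq2 and -0.15 with upper quartile scaling. In the 5 mice with both layers and with the mouse as a block, 8689 of 22771 genes were called. There Pls3, Ezr, Lcp1 and Fscn1 were called and Pls1 was not, nor was Pls1 in the same mice without the block.

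By age in epithelium 2 genes were called, but 28 with DESeq2, 36 with no filter on low counts, 0 without the covariate, 4 in the 5 mice with both layers and 1 in the 4 mice with epithelium only. With each mouse left out the count was 0 to 3 (0 without Y1, 1 without O1 or O3). By age in stroma 0 were called, but 2 with DESeq2, 26 with no filter and 0 to 13 with each mouse left out (13 without Y1, 7 without Y3). For the interaction 0 were called, but 62 with DESeq2 and 98 with no filter. The causes were not tested. The same number in the code of an aged and a young mouse marks different animals, whose deviations correlated at -0.33 to -0.042 in epithelium and 0.038 to 0.047 in stroma. With that number as a block 17 genes were called by age in epithelium and 14 in stroma. Paired over 5 mice, 0 of 6 plastin and ERM shares could pass between the layers, since 5 mice allow no p below 0.0625.

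Log2 fold changes that did not pass the test changed sign, and the cause was not tested. In the fits reported these were 1.21 for Vil1 and 0.90 for Lcp1 by age in stroma, -2.15 for Vil1, 1.25 for Pls1 and -0.78 for Lcp1 in the interaction, and between -0.26 and 0.33 for the rest. By age in epithelium, Fscn1 was 0.015 with at least 10 counts in every sample, 0.15 in the 5 mice with both layers and -0.18 to 0.14 with each mouse left out. Ezr was 0.054 in the 5 mice, and Eps8 -0.022 in the 4 mice with epithelium only. By age in stroma, Vil1 was -0.79 with the number as a block. The ranges with each mouse left out were -7.07 to 1.78 for Vil1, -0.73 to 0.0066 for Ezr, -0.23 to 0.70 for Fscn1 and -0.68 to 1.36 for Lcp1. For the interaction with the mouse as a block, Fscn1 was 0.27, Lcp1 0.025 and Vil1 1.17. The ranges with each mouse left out were -0.59 to 0.32 for Fscn1, -3.11 to 5.54 for Vil1, -0.080 to 0.85 for Ezr, -1.44 to 0.82 for Lcp1 and -0.13 to 4.14 for Pls1. Age differences of shares, in percentage points with each mouse left out, were -0.908 to 0.502 for Rdx, -1.64 to 1.02 for Ezr and -0.62 to 1.18 for Msn in epithelium, and -12.6 to 1.56 for Lcp1 and -7.04 to 0.0295 for Rdx in stroma.

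Few reads limit the precision for Espnl, Pls1 and Vil1 in epithelium, with 0 to 8, 0 to 20 and 0 to 13 reads a sample, and for Espn in the 4 mice with epithelium only, where it rested on 14 to 65.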
